A study of Mus musculus with 32 samples.

Results

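The comparison described here sets intestinal stem cells against their progenitors in wild-type mice on the high-fat diet, and its members are the 8 libraries of those groups among the 32 libraries of the study. The libraries were set by their group alone, 4 of sorted stem cells and 4 of sorted progenitors, and no expression value decided which were included. The gene lists used below were drawn up with earlier results of these data known, so counts within them are no independent test. The study crossed diet (High Fat, or High Fat Control), genotype and cell population in 8 groups of 4 libraries, and measured polyA RNA from sorted cells by sequencing. All mice were C57BL6. The wild-type mice carried Villin-CreER, an inducible Cre recombinase under a promoter of the gut epithelium, and Lgr5-GFP-IRES-CreER, a knock-in that puts green fluorescent protein and another inducible Cre at the Lgr5 locus. The Cpt1a-deficient mice carried the same 2 alleles together with Cpt1afl/fl, floxed copies of the gene whose enzyme lets long-chain fatty acids enter mitochondria. Both Cre alleles were therefore present in every group, wild type included. Each group has 2 libraries labelled female and 2 labelled male, and ages are not given in the labels.

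Crypts were dissociated with TrypLE, and cells were sorted as high in GFP (stem cells) or low in GFP (progenitors). Both gates also required EpCAM, low or no CD24, and no CD31, Ter119, CD45 or the dead-cell dye 7AAD. The populations are thus defined by the reporter, and Lgr5 itself is the gene behind the gate, so its difference checks the sort and is not a finding. The labels do not say whether the libraries came from separate mice, so each p-value measures a spread between libraries. In the main fit that spread was estimated over all 32 libraries of the 8 groups, not only those compared. Libraries are called a to d within each group, in the order of the deposited columns. Each stem cell column can be paired with the progenitor column after it, and the pair is named by the same letter.

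The crypt is the proliferative pit of the intestinal lining. Stem cells at its base, marked by Lgr5, are held there by Wnt ligands that stabilise beta-catenin and drive TCF/LEF factors, while BMP signals from the villus side promote differentiation. Their daughters become progenitors that choose by Notch signalling between absorptive enterocytes and secretory cells, the latter under Atoh1: goblet cells make mucus, Paneth cells make antimicrobial peptides, enteroendocrine cells make hormones and tuft cells sense luminal chemicals. On a fat-rich diet these cells meet large amounts of fatty acid, which PPAR receptors sense and mitochondria and peroxisomes oxidise.

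Totals in the 8 libraries ran from 4362994 to 7281724 estimated counts. Log2 CPM (each count per 1e6 of its library total, scaled by TMM) correlated at 0.967 to 0.975 among the stem cell libraries, 0.965 to 0.975 among the progenitor libraries and 0.906 to 0.935 between the populations. Cpt1a, the gene deleted in the other genotype, stood at 182 to 240 CPM in the wild-type high-fat stem cells and 247 to 347 in the progenitors, against 18.8 to 25.9 and 22.2 to 28.2 in the Cpt1a-deficient high-fat groups. White blood cell and stromal, endothelial or red blood cell markers were nearly absent. Of 25 genes in each list 2 had enough counts to be tested (Lyz2 and Itgam, both called lower in stem cells, and Vim and Pdgfrb, of which Vim was lower), 8 genes of each list had no count in any of the 8 libraries, Ptprc (CD45) did not exceed 0.271 CPM, Pecam1 (CD31) did not exceed 0.872, and Cdh5 and Cd3e had no count in any of the 8 libraries. Xist was at 57.0 to 87.6 CPM in libraries a and b of both populations and at most 0.378 in c and d, and Ddx3y had the opposite pattern.

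Lgr5 (ENSMUSG00000020140, chr10:115450311-115587780) was read at 315, 515, 337 and 282 CPM in stem cell libraries a to d and at 20.7, 43.4, 19.4 and 28.1 CPM in progenitors a to d. It was 13.0-fold higher in the stem cells, a log2 difference of 3.70 ± 0.42 (SE). Olfm4 (ENSMUSG00000022026, chr14:79984081-80023139), which encodes a secreted glycoprotein of the crypt base, was at 9409, 9903, 9790 and 10640 CPM in stem cells against 1733, 2584, 1879 and 2462 CPM. The log2 difference was 2.20 ± 0.22 (adjusted p = 9.47e-09), and the lowest stem cell library lay far above the highest progenitor library. The other gate genes moved less. Epcam was at 2148 ± 207 CPM (SD, n = 4) in stem cells and 2459 ± 113 in progenitors, with overlapping libraries (log2 difference -0.20 ± 0.09, adjusted p = 0.0771, and 0.0347 with the column pairs). Cd24a was at 254 ± 42.9 and 294 ± 35.5 CPM, also overlapping (-0.21 ± 0.15, adjusted p = 0.271). Kit, which encodes CD117, an antigen stained but not named in the gate, was lower in every stem cell library at 30.3 to 53.9 CPM than in the progenitors at 82.7 to 167 CPM (-1.46 ± 0.28, adjusted p = 0.000197).

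Of 13088 genes with enough counts, 4887 (37.3% of those tested) passed edgeR's quasi-likelihood test at an adjusted p of 0.05. Of these, 2262 genes (17.3%) were higher in stem cells and 2625 (20.1%) lower. The larger differences were mostly losses in the stem cells: 689 genes (5.26%) passed a test against a 2-fold change, 162 upward (1.24%) and 527 downward (4.03%). The 4 stem cell libraries lay wholly above the 4 progenitor libraries for 1982 genes (15.1%) and wholly below for 2341 (17.9%). Counts of list members given below are to be read beside these shares of all genes. The balance of these calls was not the same in all analyses. The median log2 difference over all genes was 0.01 on the count scale and 0.28 on the deposited log2(TPM + 1) scale, and limma on the latter, which changes both the scale and the test, called 4971 genes higher and 1287 lower. The counts were scaled by TMM, while the TPM values, shares of a fixed total in each library, were used without further scaling. The gene with the highest mean TPM in progenitors, Defa24, averaged 3124 TPM in stem cells and 21980 TPM in progenitors. The cause of the shift between the scales was not tested. Differences are given below on the count scale, and where the deposited TPM scale turns the direction of a list's median or calls this is stated beside it. Counts on the TPM scale are to be read beside the 4971 higher and 1287 lower of 13088 genes, and medians beside 0.28.

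**Figure D1:**
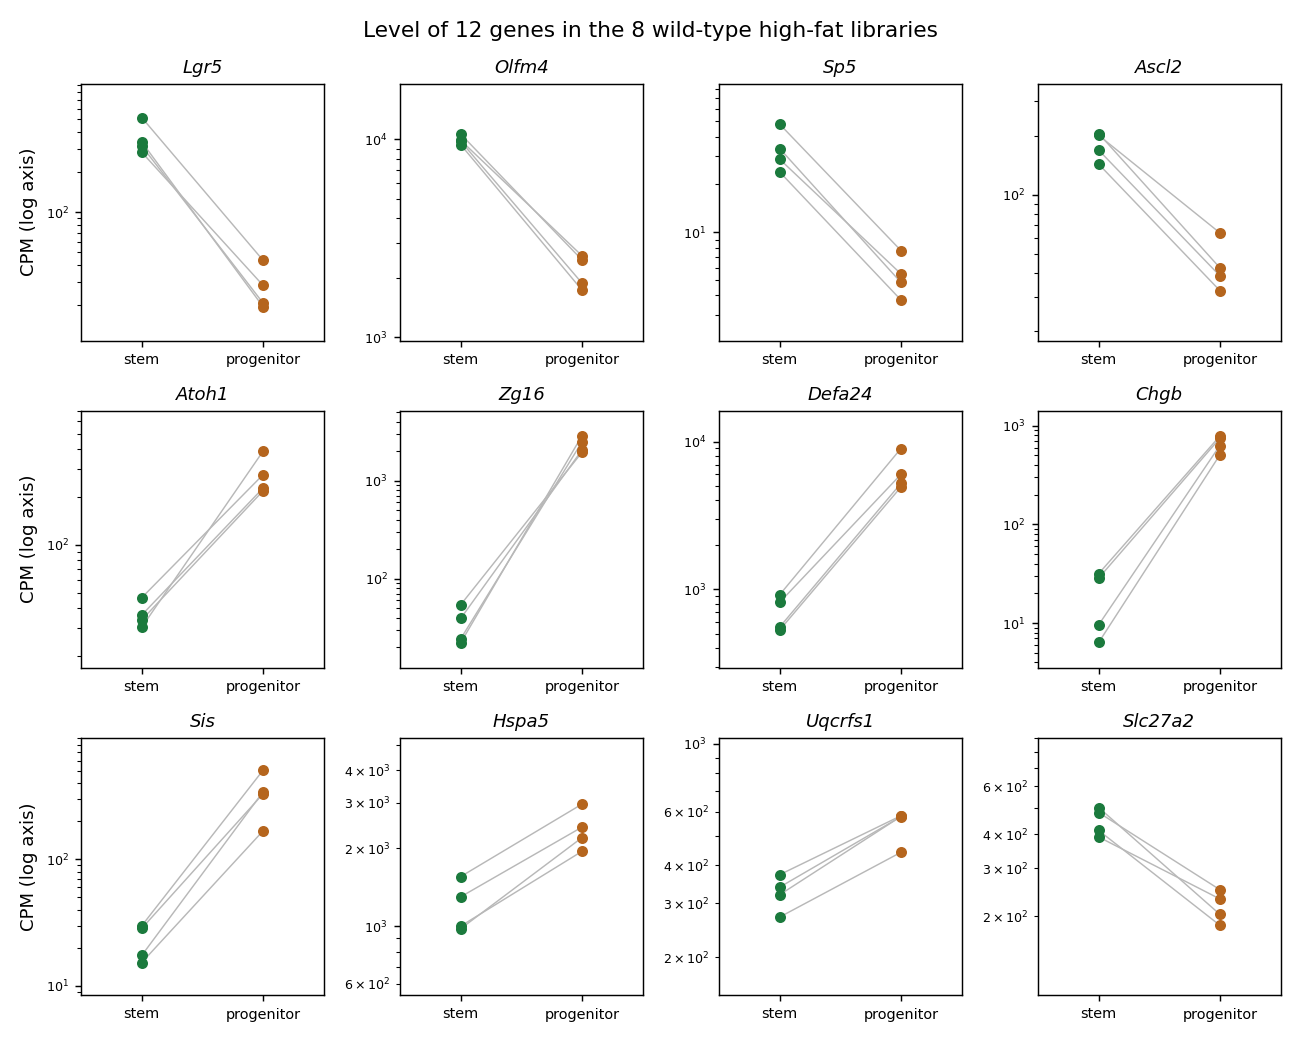
CPM (log axis) of 12 genes in the 4 stem cell and 4 progenitor libraries of wild-type mice on the high-fat diet. Each point is a library and each grey line joins the libraries of a column pair. The populations do not overlap for any of these genes. The spread within a group is small beside the difference for Lgr5, Olfm4 and Zg16, wider for Chgb in stem cells, and closer to the difference for Uqcrfs1.

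**Figure D2:**
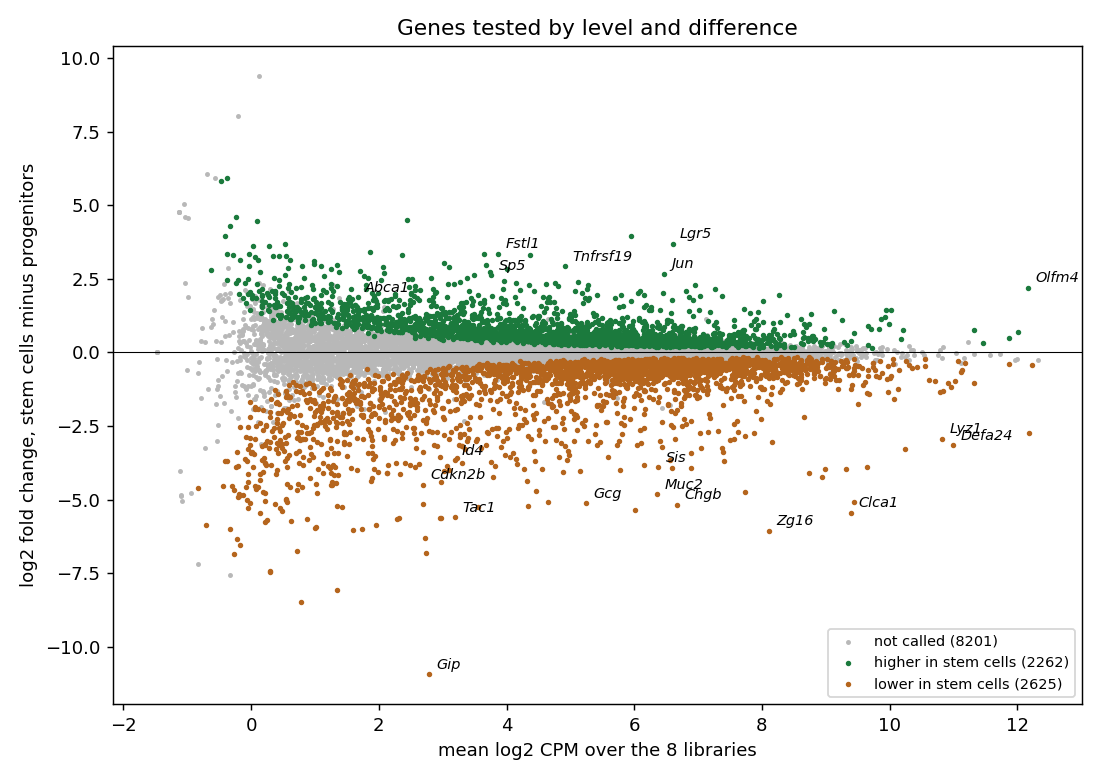
Mean log2 CPM over the 8 libraries against the log2 fold change (stem cells minus progenitors) of the 13088 genes tested, with the 2262 genes called higher in green and the 2625 called lower in brown. The genes lower in stem cells reach further from 0 than those higher, with Zg16 at -6.06 and Lgr5 at 3.70.

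Crypt base markers were higher in stem cells. Of 31 crypt base markers tested, 29 rose and none fell, with a median log2 difference of 1.53 against 0.01 for all genes. Among all genes 17.3% were called higher. The 29 also had stem cell libraries wholly above the progenitors, against 15.1% of all genes. The list includes Lgr5, the gene behind the gate. Its largest differences after Lgr5 were in Fstl1, which encodes a secreted glycoprotein of the follistatin family, Tnfrsf19 (Troy), a receptor known as a Wnt target, and Sp5, a transcription factor that Wnt signalling induces. Fstl1 was at 45.8, 47.3, 48.8 and 40.5 CPM in stem cells and at 4.49, 5.41, 4.34 and 3.28 CPM in progenitors, 10.3-fold higher (3.36 ± 0.26, adjusted p = 3.87e-11). Tnfrsf19 was at 61.3 to 113 CPM in stem cells and 7.03 to 19.4 CPM in progenitors (2.93 ± 0.29, adjusted p = 1.28e-08). Ascl2, the transcription factor at the head of the stem cell programme, was at 144 to 206 CPM against 32.3 to 63.8 (2.02 ± 0.25, adjusted p = 4.83e-07). Smoc2, a matricellular protein, was at 1445 to 1808 CPM against 518 to 683 (1.44 ± 0.12, adjusted p = 1.84e-10). Ephb2 and Znrf3 were the 2 tested markers that did not pass. Ephb2, a receptor with a graded level along the crypt, was at 25.4 ± 1.69 and 22.3 ± 2.08 CPM (0.19 ± 0.21, adjusted p = 0.531), and Znrf3 was at 5.32 to 15.7 and 3.97 to 8.44 CPM (0.69 ± 0.45, adjusted p = 0.242, and 0.0303 with the column pairs).

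Within the Wnt list 18 of 33 genes tested rose and 3 fell, with a median of 0.69. This list also includes Lgr5, the gene behind the gate, and shares members such as Sp5 and Tnfrsf19 with the crypt base list. The members that rose cover receptors, nuclear effectors and targets. Rnf43, which removes Frizzled receptors from the surface and is itself a Wnt target, was at 175 to 317 CPM in stem cells and 54.0 to 83.7 in progenitors (1.77 ± 0.20). Lef1, a TCF/LEF factor, was low but clearly apart, at 2.64 to 4.43 CPM against 0 to 0.698 (3.29 ± 0.56), with no count in progenitor libraries c and d. Its relative Tcf7 was at 29.0 to 44.0 against 14.3 to 15.4 CPM (1.39 ± 0.18). Tcf7l1, the family member known mainly as a repressor, went the other way: 0.678, 0.253, 0.215 and 0 CPM in stem cells against 1.04, 2.09, 2.27 and 1.41 CPM in progenitors (-2.39 ± 0.59, adjusted p = 0.00190). Myc was at 291 to 343 CPM against 141 to 192 (0.93 ± 0.13), and its libraries did not overlap. Fzd5, a Frizzled receptor of the crypt, was lower in stem cells at 5.57 to 7.75 against 8.72 to 14.2 CPM (-0.80 ± 0.17), and Bambi, a decoy receptor of the TGF-beta family that Wnt can induce, was lower at 4.48 to 6.17 against 9.44 to 17.1 CPM (-1.19 ± 0.24).

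The promoter of Sp5 is shown because Sp5 is a crypt base marker that rose and carries a TCF/LEF match. The core CTTTGAT was searched on both strands in windows of 300 bases, 250 before the RefSeq start and 50 after it. Here and below 250 bases before the start are printed 5′ to 3′ on the gene's strand (GRCm38.p6), with the matched bases in capitals. The Sp5 stretch is chr2:70474673-70474922, plus strand, and its match begins 104 bases before the start.

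Sp5 promoter: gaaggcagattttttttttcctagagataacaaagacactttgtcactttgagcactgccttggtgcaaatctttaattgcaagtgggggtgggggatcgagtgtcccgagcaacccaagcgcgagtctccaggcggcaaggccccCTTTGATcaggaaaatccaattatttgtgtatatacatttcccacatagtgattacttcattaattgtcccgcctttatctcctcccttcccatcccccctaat

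The match was found in 2 of 24 crypt base genes with a window (8.33%), Sp5 and Tnfrsf19, and in 305 of 9623 tested genes with a window (3.17%). Sp5 was at 33.6, 47.9, 28.8 and 24.0 CPM in stem cells and at 4.84, 7.68, 5.47 and 3.75 CPM in progenitors, 6.12-fold higher (2.61 ± 0.25, adjusted p = 1.82e-09). Pair b held the highest library of each population, and the groups lay far apart. A match is a description of these letters and not of a bound site, and no promoter window was matched for Lgr5.

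BMP and TGF-beta signalling was mixed, with 7 of 28 genes tested higher, 7 lower and a median of 0.12. On the TPM scale 12 were higher and 5 lower. Id4, an inhibitor of basic helix-loop-helix factors, was at 1.49, 3.17, 3.66 and 1.76 CPM in stem cells and at 23.1, 38.4, 41.7 and 22.0 CPM in progenitors (-3.65 ± 0.40, adjusted p = 3.07e-08). Id3, a common BMP target, was at 30.5 to 59.4 against 68.2 to 108 CPM (-1.22 ± 0.23), and Smad6, an inhibitory Smad, at 2.41 to 3.70 against 6.56 to 7.36 CPM (-1.23 ± 0.28). The ligand gene Bmp2 was low and lower in stem cells, at 0.860 to 2.03 against 3.05 to 5.47 CPM (-1.36 ± 0.25). On the other side, Rgmb, a BMP co-receptor, rose 3.80-fold with 285 to 421 against 65.8 to 108 CPM (1.93 ± 0.23). Acvr2b, an activin receptor, was at 14.6 to 17.5 against 3.97 to 9.63 CPM (1.14 ± 0.21), and Bmp1, a procollagen protease despite its name, at 7.05 to 13.0 against 2.83 to 4.88 CPM (1.32 ± 0.24).

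In the Notch list, 2 Delta-like ligands were lower in stem cells: Dll1 at 39.5 to 51.6 against 122 to 183 CPM (-1.67 ± 0.14, adjusted p = 1.48e-10) and Dll4 at 13.0 to 14.3 against 41.3 to 52.3 CPM (-1.73 ± 0.22, adjusted p = 2.43e-07). Notch1, the main receptor of the crypt, was at 13.6 to 28.1 against 8.12 to 13.1 CPM (1.18 ± 0.24). Hes1, the repressor that Notch induces, was at 129 to 171 against 59.3 to 95.6 CPM (0.89 ± 0.15, adjusted p = 2.61e-05), and Dtx4, an ubiquitin ligase of the pathway, at 125 to 195 against 53.2 to 68.7 CPM (1.33 ± 0.17). In all, 5 of 19 tested genes rose and 3 fell, with a median of 0.02, against 17.3% higher and 20.1% lower among all genes. The fit that uses the column pairs called 8 higher and 5 lower. Without stem cell library b 4 were higher and 5 lower. Olfm4 and Rbpj were the other members that rose.

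Eph receptors and ephrins sort cells along the crypt, with EphB receptors at the base and ephrin-B ligands above. Of 12 genes tested 6 rose and 3 fell. Ephb3 was at 110 to 146 CPM in stem cells and 35.4 to 54.9 in progenitors (1.53 ± 0.22, adjusted p = 2.90e-06). The ligand gene Efnb2 was at 4.07, 4.43, 3.66 and 2.29 CPM in stem cells and at 19.0, 21.3, 26.8 and 20.4 CPM in progenitors (-2.57 ± 0.27, adjusted p = 1.30e-08). Efnb1, the other ephrin-B tested, was lower by less, at 30.3 to 44.3 against 46.4 to 60.6 CPM (-0.44 ± 0.11, adjusted p = 0.00200). Efna4, an ephrin-A ligand gene, was higher at 35.9 to 56.8 against 12.1 to 19.0 CPM (1.53 ± 0.17).

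Secretory lineages made up the deepest losses. Of 26 transcription factors of secretory fate tested, 19 fell and 1 rose, with a median of -2.82. Atoh1, which commits progenitors to the secretory fate, was at 33.6, 30.3, 46.4 and 36.1 CPM in stem cells and at 219, 389, 277 and 228 CPM in progenitors (-2.93 ± 0.22, adjusted p = 5.30e-11). Spdef, the goblet and Paneth maturation factor, was at 5.11 to 8.54 against 48.0 to 92.6 CPM (-3.36 ± 0.31), Creb3l1, a membrane-bound factor of secretory cells, at 10.04 to 17.1 against 62.6 to 126 CPM (-2.63 ± 0.25), and Neurod1, an enteroendocrine factor, at 0.407 to 1.76 against 16.6 to 19.9 CPM (-4.12 ± 0.33). The single member that rose was Sox4, a factor also known from stem cells and early secretory precursors, at 161 to 298 against 67.6 to 106 CPM (1.45 ± 0.19, adjusted p = 4.63e-07).

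All 27 goblet markers tested fell, against 20.1% of all genes, and their median was -3.82. Each had non-overlapping libraries, against 17.9% of all genes with stem cells wholly below. Their summed level was 2486 to 3129 TPM in stem cells and 30010 to 48300 TPM in progenitors. Zg16 (ENSMUSG00000049350, chr7:127050156-127087328), a lectin of the mucus layer, was at 39.2, 24.3, 22.2 and 54.1 CPM in stem cells and at 2047, 2476, 2864 and 1944 CPM in progenitors. That is 66.7-fold lower in stem cells (-6.06 ± 0.70, adjusted p = 1.94e-07). Muc2, the main gel-forming mucin, was at 12.0 to 20.9 against 332 to 604 CPM (-4.81 ± 0.38, adjusted p = 2.79e-10). Clca1, a secreted protease that processes mucus, was at 56.9 to 151 against 2641 to 7899 CPM (-5.44 ± 0.54), and Fcgbp, a mucus-binding protein, at 105 to 149 against 2964 to 5192 CPM (-5.09 ± 0.43). Rep15, an effector of a Rab GTPase, was 34.1-fold lower (-5.09 ± 0.26).

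Of 31 Paneth markers tested, 28 fell and none rose, with a median of -2.92, and their summed level was 5932 to 11030 TPM in stem cells against 41600 to 76850 TPM in progenitors. The alpha-defensin Defa24 was at 531, 920, 817 and 556 CPM in stem cells and at 4927, 8984, 6003 and 5215 CPM in progenitors (-3.15 ± 0.66, adjusted p = 0.000480). The alpha-defensin genes are near-identical copies, so the level of any single copy is uncertain. Lyz1, the Paneth cell lysozyme, was at 410 to 858 against 4246 to 5969 CPM (-2.92 ± 0.75, adjusted p = 0.00330). Its neighbour Lyz2, the lysozyme of white blood cells, was at most 0.705 CPM in stem cells and 4.69 in progenitors, and these copies too are similar. Mptx1, a pentraxin of Paneth cells, was at 0.760 to 1.94 against 26.01 to 109.7 CPM (-5.62 ± 0.48). Paneth and goblet transcripts were therefore read in both gates, although the gates were set to low or no CD24, and Defa24 still ranked at position 13 by mean TPM in the stem cells. In bulk samples, fewer cells of a type and less RNA per cell cannot be told apart.

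In the main fit enteroendocrine markers had the lowest median of the lists, -4.57, with 34 of 36 tested genes lower and 1 higher. That rank depended on the measure. Goblet markers were lower within each pair, with pair medians of -4.32 to -3.51 against -3.97 to -3.14. On the TPM scale the goblet median was -3.35 and the Paneth median -2.38, against -2.29 for enteroendocrine markers. Gip, the hormone of K cells, was at 109, 119, 140 and 112 CPM in progenitors and had a single count over all 4 stem cell libraries, so no fold is given. Cck, the hormone of I cells, was at 0 to 0.881 CPM in stem cells and 45.2 to 62.1 in progenitors (-6.31 ± 0.47). Gcg, the proglucagon gene, was at 6.10, 0.633, 28.6 and 2.82 CPM in stem cells and at 246 to 409 CPM in progenitors (-5.11 ± 0.81, adjusted p = 3.29e-05). Chga and Chgb, granins of the hormone granules, varied in the stem cells by pair. Chgb was at 6.37 and 9.62 CPM in stem cell libraries a and b and at 28.6 and 31.7 CPM in c and d, against 506 to 785 CPM in progenitors (-5.18 ± 0.59, adjusted p = 1.57e-07). The marker that rose was Marcksl1, a membrane-associated cytoskeletal regulator with wider expression, at 43.2 to 72.8 against 17.6 to 29.8 CPM (1.27 ± 0.22).

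Tuft cell markers differed less: 10 of 19 tested genes fell and 1 rose, with a median of -1.22. Their summed level was lower in stem cells on the count scale, at 429 to 524 CPM against 601 to 725 CPM in progenitors. On the TPM scale the sums overlapped, at 394 to 454 TPM in stem cells and 396 to 464 TPM in progenitors. Without progenitor library d 9 fell and 2 rose. Avil, an actin-binding protein of tuft cells, was at 2.91 to 3.88 against 10.02 to 17.3 CPM (-2.02 ± 0.29), while the keratin gene Krt23 was higher at 35.1 to 46.0 against 15.2 to 17.6 CPM (1.34 ± 0.20). Vim, an intermediate filament gene on the stromal list, had 2 counts in all stem cell libraries together and 4.36 to 6.33 CPM in progenitors, and no fold is given.

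Absorptive markers were also lower. Of 42 enterocyte genes tested 29 fell and 3 rose, with a median of -1.43, and the summed level was 5602 to 7385 TPM in stem cells and 8117 to 16110 TPM in progenitors. Only 1 rose without progenitor library a, b or c, or in a fit of only the 8 libraries. Sis, the brush border sucrase-isomaltase, was at 28.5, 15.3, 29.9 and 17.4 CPM in stem cells and at 329, 168, 504 and 340 CPM in progenitors (-3.89 ± 0.41, adjusted p = 4.86e-08). Krt20, a keratin of differentiated cells, was at 15.9 to 46.9 against 239 to 332 CPM (-3.21 ± 0.35). Not all brush border genes followed: Mep1a, a meprin protease subunit, was 1.99-fold higher in stem cells at 28.8 to 33.1 against 12.4 to 19.4 CPM (0.99 ± 0.20, adjusted p = 0.000267). Dpp4, a peptidase of the brush border, was at 317 ± 20.9 against 279 ± 16.1 CPM (0.18 ± 0.07, adjusted p = 0.0499), a call that was lost without stem cell library c or d or without progenitor library a, b or c (adjusted p up to 0.160). Among the transcription factors of intestinal identity 4 of 23 rose and 5 fell (median -0.17), shares near those of all genes, and on the TPM scale 7 rose and 3 fell (median 0.21). Klf4, a factor of goblet and surface cells, fell by 2.90 ± 0.31 on the log2 scale, and Hnf4g, which drives the enterocyte programme, was at 59.5 to 73.8 against 119 to 246 CPM (-1.39 ± 0.20). Sox9, a crypt factor downstream of Wnt, was at 273 to 469 against 109 to 193 CPM (1.34 ± 0.18), and Gata5, a GATA factor of the gut, at 108 to 198 against 81.1 to 105 CPM (0.69 ± 0.13).

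**Figure D3:**
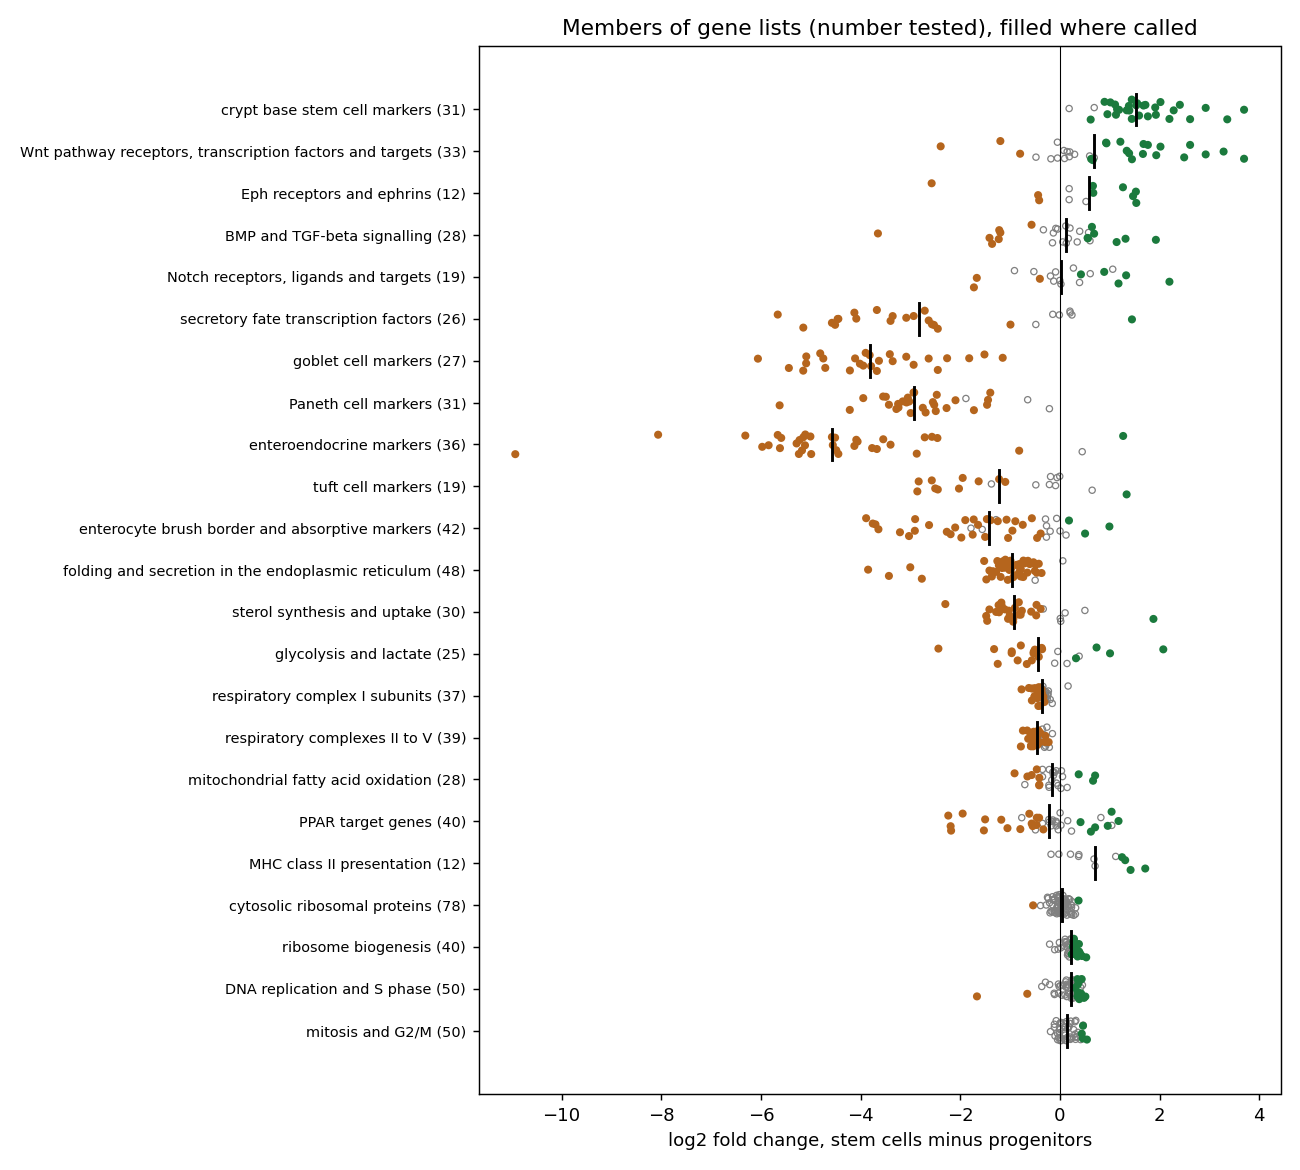
Log2 fold change (stem cells minus progenitors) of every tested member of 23 gene lists, with the number tested in brackets. Filled points passed the test (green higher, brown lower), open points did not, and the black bar is the list's median. Goblet, Paneth and enteroendocrine markers sit furthest to the left and crypt base markers furthest to the right, while ribosomal, replication and respiratory genes lie close to 0.

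Genes of protein folding and secretion in the endoplasmic reticulum moved with the secretory markers. Of 48 tested, 46 fell and none rose, against 20.1% of all genes lower, and 43 had stem cell libraries wholly below the progenitors. The median was -0.96, and -0.64 on the TPM scale, on which 35 fell. Large losses were seen in Kdelr3, which returns resident proteins to the organelle (3.39, 3.67, 4.52 and 2.99 CPM against 49.9, 77.1, 42.8 and 38.9 CPM, -3.85 ± 0.32), in Ern2, a stress sensor of mucus-producing epithelium (27.3 to 34.2 against 190 to 321 CPM, -3.00 ± 0.23), and in Sec24d, a coat protein of export vesicles (17.8 to 25.6 against 124 to 181 CPM, -2.77 ± 0.22). General chaperones fell by about 2-fold. P4hb, protein disulfide isomerase, was at 555 to 709 CPM in stem cells and 1568 to 1631 in progenitors (-1.34 ± 0.10, adjusted p = 2.33e-11). Hspa5 (ENSMUSG00000026864, chr2:34771970-34777547), the chaperone BiP, was at 1301, 1557, 980 and 1003 CPM in stem cells and at 2415, 2963, 2200 and 1948 CPM in progenitors (-0.98 ± 0.17, adjusted p = 2.86e-05). The gap between its populations, from 1557 up to 1948 CPM, is narrower than the spread of either. Herpud1 and Ddit3, stress-induced genes, were the 2 of 48 that did not pass, at 372 to 948 CPM and 4.40 to 14.8 CPM over the 8 libraries. All 27 goblet and 28 of 31 Paneth markers fell in the same comparison, and their part in the difference of this list was not tested.

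The ER stress response element, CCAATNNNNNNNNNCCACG, is the binding sequence through which ATF6 and NF-Y are known to raise chaperone genes. It was searched on both strands in the same windows and found in 8 of the 38 list members with a window (21.1%), against 17 of 9623 tested genes with a window (0.177%) and 37 of 27025 RefSeq genes (0.137%). These 8 genes are named because of the match. Each stretch below holds a match with 5 bases on either side, on the strand of the motif, with the fixed letters in capitals.

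Calr: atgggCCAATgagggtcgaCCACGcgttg
Canx: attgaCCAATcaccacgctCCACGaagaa
Creld2: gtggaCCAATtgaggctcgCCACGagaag
Dnajc3: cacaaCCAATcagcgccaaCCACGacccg
Hsp90b1: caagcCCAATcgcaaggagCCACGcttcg
Hsp90b1: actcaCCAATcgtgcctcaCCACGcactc
Hspa5: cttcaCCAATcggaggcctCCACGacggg
Pdia6: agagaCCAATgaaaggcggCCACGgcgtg
Syvn1: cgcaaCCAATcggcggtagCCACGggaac

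All 8 were lower in stem cells: Creld2 by 1.28, Dnajc3 by 1.16, Pdia6 by 1.11, Calr by 1.05, Hspa5 by 0.98, Hsp90b1 by 0.81, Canx by 0.78 and Syvn1 by 0.73 on the log2 scale. Since 46 of the 48 tested members of the list fell, members with and without a match moved alike in direction. The longer stretches of 2 of these promoters show where the match lies. Hspa5 (chr2:34771840-34772089, plus strand) has it 65 bases before the start, and Creld2 (chr15:88819396-88819645, plus strand) has it on the opposite strand 126 bases before the start.

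Hspa5 promoter: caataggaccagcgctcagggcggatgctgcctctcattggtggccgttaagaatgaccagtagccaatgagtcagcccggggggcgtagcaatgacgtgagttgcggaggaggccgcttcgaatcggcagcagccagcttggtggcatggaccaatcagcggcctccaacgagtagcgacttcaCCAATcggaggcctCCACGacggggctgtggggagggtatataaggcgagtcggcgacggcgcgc
Creld2 promoter: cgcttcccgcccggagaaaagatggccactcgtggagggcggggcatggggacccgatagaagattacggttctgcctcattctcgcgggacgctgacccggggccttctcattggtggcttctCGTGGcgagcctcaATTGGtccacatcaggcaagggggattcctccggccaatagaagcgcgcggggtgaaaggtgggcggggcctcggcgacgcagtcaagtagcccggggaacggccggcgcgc

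Creld2, a secreted chaperone-associated protein, was at 107, 110, 82.6 and 71.7 CPM in stem cells and at 230, 301, 204 and 171 CPM in progenitors (-1.28 ± 0.21, adjusted p = 2.31e-05).

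Fatty acid genes did not move as a block. Of 28 genes of mitochondrial fatty acid oxidation tested, 3 rose and 7 fell, with a median of -0.15. Among all genes 17.3% were higher and 20.1% lower. The fit with column pairs called 3 higher and 13 lower, and on the TPM scale the balance turned to 6 higher and 1 lower with a median of 0.16. Without progenitor library d 3 were higher and 4 lower, and without stem cell library d 2 were higher and 11 lower. Cpt1a, the entry step, was at 182, 190, 211 and 240 CPM in stem cells and at 247, 247, 294 and 347 CPM in progenitors (-0.46 ± 0.14, adjusted p = 0.00941), and without progenitor library d the adjusted p was 0.0592. Every stem cell library lay below every progenitor library by a small margin. Cpt2, its partner at the inner membrane, was at 116 to 197 against 191 to 299 CPM with overlap (-0.57 ± 0.16, adjusted p = 0.00493). Acsl1, which activates long-chain fatty acids, went up at 120 to 163 against 78.5 to 98.7 CPM (0.71 ± 0.14, adjusted p = 0.000142). In the peroxisome 3 of 25 genes rose and 9 fell (median -0.05), and on the TPM scale 10 rose and 6 fell (median 0.28). Slc27a2, a very-long-chain acyl-CoA synthetase and transporter, was at 413, 501, 480 and 391 CPM in stem cells and at 185, 203, 250 and 231 CPM in progenitors, 2.05-fold higher (1.04 ± 0.13, adjusted p = 2.13e-07).

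PPAR targets, the genes that fatty acid receptors switch on, held 6 higher and 16 lower among 40 tested, with a median of -0.22 that was 0.08 on the TPM scale. Acot1, an acyl-CoA thioesterase with a close copy in Acot2, was at 38.2, 71.5, 116 and 154 against 18.1, 32.3, 43.0 and 75.7 CPM (1.18 ± 0.33, adjusted p = 0.00657, 2.61e-07 with the pairs and 0.161 in a fit of only the 8 libraries). Within each pair the stem cells were higher, but the populations overlapped, and pairs c and d stood above a and b in both. Me1, the malic enzyme that supplies NADPH, was lower at 4.30 to 8.10 against 17.4 to 38.4 CPM (-2.18 ± 0.35). Of the 18 receptors and coregulators of the PPAR family tested, 4 rose and 1 fell with differences from -1.39 to 0.37 and a median of -0.18 (0.13 on the TPM scale). Without progenitor library a, or without stem cell library b, only the 1 lower call was made. The fits without each other library gave 2 or 3 higher and 2 to 4 lower, that of only the 8 libraries 1 and 1, and the pairs 4 and 4.

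Genes for uptake of fatty acids and assembly of chylomicrons, the work of mature enterocytes, had a median of -0.64, with 15 of 28 lower and 5 higher. Mogat2, which rebuilds triglyceride from absorbed monoglyceride, was at 18.0 to 27.3 against 68.9 to 157 CPM (-2.35 ± 0.27), and Mttp, which loads lipid onto apolipoprotein B, at 131 to 183 against 309 to 736 CPM (-1.75 ± 0.21). Slc27a1, a fatty acid transport protein, was the largest increase of the list, at 104, 152, 134 and 113 CPM in stem cells and at 38.7, 61.9, 39.8 and 43.1 CPM in progenitors (1.45 ± 0.17, adjusted p = 6.30e-08). Fatty acid synthesis had 4 of 17 genes higher and 3 lower, against 17.3% and 20.1% of all genes. Acss2, which makes acetyl-CoA from acetate, was 1.78-fold higher at 197 to 224 against 100 to 131 CPM, and Elovl6, an elongase, was 3.22-fold lower at 20.4 to 30.2 against 70.0 to 94.7 CPM.

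Sterol genes moved together. Of 30 genes of sterol synthesis and uptake tested, 24 fell and 1 rose, with a median of -0.92 that was -0.57 on the TPM scale. Hmgcs1, the synthase at the start of the mevalonate pathway, was at 148, 106, 78.7 and 135 CPM in stem cells and at 309, 303, 211 and 268 CPM in progenitors (-1.22 ± 0.20, adjusted p = 1.82e-05). Npc1l1, the importer of dietary cholesterol, was at 14.2 to 22.8 against 63.3 to 98.3 CPM (-2.30 ± 0.20). Abca1, which exports cholesterol and is known as a target of liver X receptors rather than of SREBP2, was the member that rose, at 5.29, 6.08, 8.17 and 3.17 against 0.863, 1.22, 2.83 and 1.17 CPM (1.88 ± 0.46, adjusted p = 0.00174). The sterol response element TCACNCCAC was found, on either strand, in 1 of 21 list members with a window (4.76%), Hmgcs1, and in 135 of 9623 tested genes with a window (1.4%). Its stretch at chr13:119690101-119690350, plus strand, has the match 137 bases before the start.

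Hmgcs1 promoter: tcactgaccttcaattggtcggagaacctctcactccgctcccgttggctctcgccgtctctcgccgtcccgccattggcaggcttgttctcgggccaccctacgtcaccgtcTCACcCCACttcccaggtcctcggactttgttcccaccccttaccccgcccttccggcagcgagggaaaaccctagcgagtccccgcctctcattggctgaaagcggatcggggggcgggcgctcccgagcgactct

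Central carbon genes were lower by small amounts in many members. In glycolysis 15 of 25 genes tested fell and 4 rose (median -0.44, and -0.16 on the TPM scale with 7 lower and 6 higher). Pfkp, the platelet form of phosphofructokinase, was at 59.3, 35.4, 48.4 and 50.7 CPM in stem cells and at 288, 213, 277 and 272 CPM in progenitors, 5.42-fold lower (-2.44 ± 0.22, adjusted p = 1.04e-09). Ldha, the lactate dehydrogenase that favours lactate, was at 828 to 1409 against 2384 to 3182 CPM (-1.32 ± 0.17), while Ldhb, which favours pyruvate, was higher in stem cells at 2.58 to 6.33 against 0.378 to 1.64 CPM (2.08 ± 0.47). Hk2, the hexokinase that starts the pathway, rose as well, at 47.6 to 62.8 against 26.7 to 42.4 CPM (0.74 ± 0.14). In the tricarboxylic acid cycle 19 of 32 fell and none rose (median -0.33, and -0.01 on the TPM scale with 6 lower and 4 higher). Mdh2, mitochondrial malate dehydrogenase, was at 650 to 841 against 1046 to 1542 CPM (-0.91 ± 0.14), and Cs, citrate synthase, at 305 to 398 against 529 to 632 CPM (-0.73 ± 0.10).

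Nuclear genes of the respiratory chain were lower on the count scale. Complex I had 19 of 37 lower and none higher (median -0.37), and complexes II to V had 28 of 39 lower and none higher (median -0.47). With the column pairs the counts were 34 and 37. Pair medians ran from -0.48 to -0.16 for complex I and from -0.63 to -0.24 for complexes II to V, with pair d nearest to 0. Uqcrfs1, the Rieske protein of complex III, was at 339, 271, 320 and 373 CPM in stem cells and at 577, 441, 578 and 581 CPM in progenitors (-0.74 ± 0.12, adjusted p = 6.91e-06). Cycs, cytochrome c, was at 75.1 to 109 against 143 to 166 CPM (-0.78 ± 0.16), and Sdhb, an iron-sulfur subunit of complex II, at 370 to 546 against 569 to 791 CPM (-0.64 ± 0.13). Without stem cell library b complex I kept 9 calls and complexes II to V 18, and without stem cell library d complex I had 32. On the TPM scale the medians were -0.07 and -0.19, and limma called 2 of 37 and 8 of 39 lower. The summed TPM of the lists overlapped between the populations (14720 to 18480 against 14300 to 17860 for complex I), and the medians lie below the 0.28 of all genes on that scale. No gene among the 13 protein-coding genes of the mitochondrial genome passed edgeR's test. At an unadjusted p under 0.05 there were 5, limma on the TPM scale called none, 2 passed without stem cell library a, 4 without stem cell library d, 1 by DESeq2 and 6 with the column pairs.

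Genes that make ribosomes rose by little. In ribosome biogenesis 16 of 40 genes tested rose and none fell (median 0.22). Nop56, a core protein of box C/D snoRNPs, was at 495, 511, 447 and 486 CPM in stem cells and at 347, 373, 329 and 294 CPM in progenitors (0.53 ± 0.09, adjusted p = 1.55e-05), and Polr1b, a subunit of RNA polymerase I, at 105 to 117 against 75.5 to 85.9 CPM (0.44 ± 0.10). Limma on the TPM scale called 34 of the 40 higher, with a median of 0.54 against 0.28 for all genes. The ribosomal proteins themselves were flat on the count scale: 1 of 78 rose and 1 fell, median 0.04. These were Rps19 (0.37 ± 0.14, adjusted p = 0.0387) and Fau (-0.54 ± 0.20, adjusted p = 0.0374), and without progenitor library c or d neither passed. On the TPM scale limma called 37 of 78 higher with a median of 0.33, close to the 0.28 of all genes. Mitochondrial ribosomal proteins had 19 of 71 lower and none higher, against 20.1% of all genes lower. Their median was -0.20, and 0.12 on the TPM scale, on which 8 rose and 1 fell. Lower calls numbered 35 with the pairs and 9 without progenitor library a or without stem cell library b. They numbered 10 without stem cell library c and 31 without stem cell library d.

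Cell cycle genes differed by little on the log2 scale in most members. Mki67, the proliferation antigen, was at 51.5, 57.7, 68.4 and 63.8 CPM in stem cells and at 65.8, 58.1, 54.5 and 67.3 CPM in progenitors, with overlap (-0.03 ± 0.14, adjusted p = 0.899). In DNA replication and S phase 11 of 50 genes rose and 2 fell (median 0.23), against 17.3% and 20.1% of all genes. The pairs called 22 and 3, the fit without stem cell library c 18 and 2, the fit without progenitor library c 5 and 2, without stem cell library d 6 and 3, and that of only the 8 libraries 7 and 2. On the TPM scale 40 rose and 1 fell, where 4971 of 13088 genes were called higher and 1287 lower. The list's median on that scale was 0.50, against 0.28 for all genes. Pold1, the catalytic subunit of polymerase delta, was at 165 to 201 against 110 to 140 CPM (0.51 ± 0.11). The 2 that fell were E2f2, at 6.58 to 12.0 against 23.2 to 34.9 CPM (-1.66 ± 0.25), and Rrm2, a ribonucleotide reductase subunit, at 134 to 212 against 224 to 293 CPM (-0.65 ± 0.18). In mitosis 4 of 50 rose (median 0.14), among them Ect2, a regulator of cytokinesis (0.54 ± 0.14, adjusted p = 0.00313). That count was 13 with the pairs, 8 without stem cell library a, 2 without progenitor library b or stem cell library c, and 1 without stem cell library d. On the TPM scale it was 31, with a median of 0.43 against 0.28 for all genes. The pair medians of the mitotic list ran from -0.17 in pair a to 0.34 in pair c.

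Among the cell cycle inhibitors and p53 targets, Cdkn2b (p15) was at 1.90, 1.14, 0.645 and 1.06 CPM in stem cells and at 34.02, 19.2, 27.7 and 32.1 CPM in progenitors, 22.5-fold lower (-4.49 ± 0.36, adjusted p = 6.96e-11). Cdkn1a (p21) was at 5.57 to 14.8 against 66.6 to 98.0 CPM (-2.98 ± 0.28, adjusted p = 2.28e-09), and Cdkn1c (p57), an imprinted inhibitor, at 1.23 to 2.03 against 5.18 to 9.84 CPM (-2.15 ± 0.29). Of the 26 inhibitors and p53 targets tested 5 fell and 5 rose, with a median of 0.12. These shares are near those of all genes (20.1% lower and 17.3% higher). On the TPM scale 3 fell and 14 rose, and without stem cell library b 5 fell and 3 rose. Bbc3 (Puma), a p53 target that promotes apoptosis, was higher in stem cells at 2.82 to 5.32 against 0.863 to 2.11 CPM (2.83-fold), and Phlda3, another p53 target, at 4.05 to 8.27 against 1.73 to 4.01 CPM (1.13 ± 0.34). Cdkn1a is a p53 target as well and moved the other way. Rb1 changed direction with the scale, at -0.72 ± 0.17 on the count scale (adjusted p = 0.00129) and 0.62 by limma on log2(TPM + 1) (adjusted p = 0.00380).

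MHC class II genes present peptides to T cells, and the median of the list was higher in stem cells within each pair. From 75% of its 12 tested members (pair c) to 91.67% (pairs a and b) were higher within a pair, and the populations overlapped for the 4 genes that passed. H2-Aa was at 118, 77.3, 31.4 and 20.6 CPM in stem cells and at 34.2, 27.4, 7.93 and 5.16 CPM in progenitors (1.71 ± 0.66, adjusted p = 0.0423, up to 0.180 without stem cell library a or b or progenitor library c or d, and 4.43e-08 with the pairs). Libraries a and b, those with Xist, stood above c and d in both populations. The invariant chain Cd74 followed the same order, at 1171, 1108, 567 and 347 against 559, 410, 216 and 101 CPM (1.31 ± 0.41, adjusted p = 0.0132, and up to 0.0541 without stem cell library a or b). In all, 4 of 12 genes tested rose and none fell, with a median of 0.70 and pair medians from 0.58 to 0.81. The pairs gave 7 calls, a fit of only the 8 libraries none, and the fits without stem cell library a or b 1 each, without progenitor library c or d 2 each and without progenitor library a 7. Ptprc, the white blood cell marker, was at most 0.271 CPM, as given above. The white blood cell list summed to 10.6 to 13.9 CPM in stem cells and 20.8 to 22.3 CPM in progenitors. Whether such cells contributed to the class II reads was not tested. Interferon-induced genes did not follow: 1 of 31 rose and 7 fell, against 17.3% higher and 20.1% lower among all genes. The share that fell was near that of all genes. The median of the interferon list was -0.18, and 0.16 on the TPM scale, on which 5 rose and 3 fell. On the count scale Gbp6, a guanylate-binding protein, was the member higher in stem cells (1.78 ± 0.46). Zbp1, a nucleic acid sensor, was lower (-2.93 ± 0.59). The pairs called 3 higher and 11 lower, the fit without stem cell library c 1 and 3, without progenitor library a 1 and 4, and without stem cell library d 3 and 6.

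**Figure D4:**
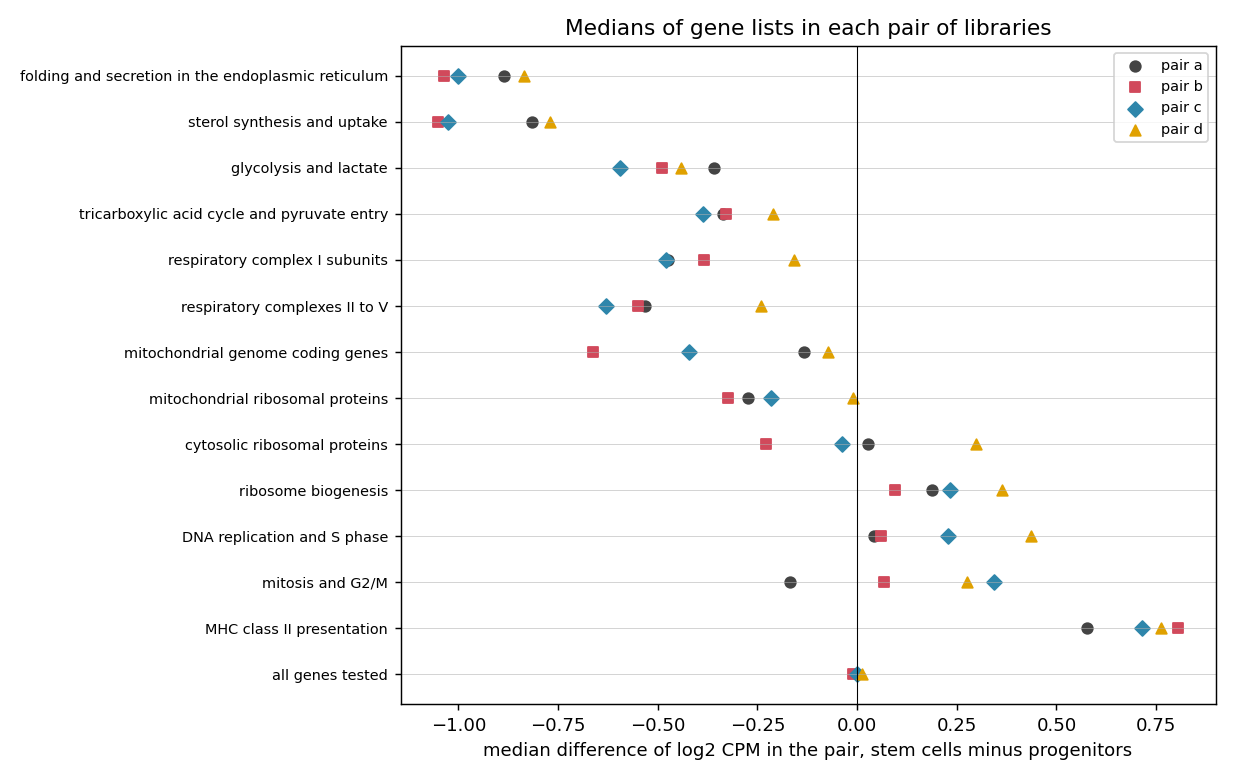
Median difference in log2 CPM (stem cells minus progenitors) of each list's tested genes in the 4 column pairs, with all genes tested at the bottom. Folding, sterol, glycolytic and respiratory lists are below 0 in all pairs, MHC class II is above 0 in all pairs, and cytosolic ribosomal and mitotic lists lie on both sides of 0.

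Further genes stood out over the whole table. Among the 15 largest increases of genes with a mean log2 CPM of at least 3 and no overlap, Gm830, a gene without a described function, was at 193, 334, 317 and 191 CPM in stem cells and at 8.29, 27.4, 17.4 and 12.9 CPM in progenitors, 15.6-fold higher (3.96 ± 0.48). A930009A15Rik lies inside Lgr5 on the opposite strand (chr10:115569986-115582448) and differed by 3.33 ± 0.21. The strand setting of the counting is not given in the sources used here, so its reads cannot be told apart from those of Lgr5. Jun, an immediate early factor that overlaps the antisense gene Junos, was at 170 to 352 against 29.6 to 47.6 CPM (2.68 ± 0.30, adjusted p = 8.96e-08), while of 25 immediate early and dissociation genes 4 rose and 1 fell with a median of 0.02. The pairs called 5 higher and 6 lower in that list. Among all genes the main fit called 17.3% higher and 20.1% lower. Clu, a marker of revival stem cells, was at 41.1, 30.8, 21.1 and 7.93 against 2.76, 5.23, 2.83 and 1.17 CPM (3.04 ± 0.54, adjusted p = 7.34e-05), higher in each pair. Other fetal-like genes went down: S100a6, a calcium-binding protein, was at 0.881 to 1.29 against 10.8 to 18.0 CPM (-3.76 ± 0.40), and Anxa3, an annexin, at 1.51 to 5.02 against 11.0 to 19.4 CPM (-2.38 ± 0.44). In the list 3 of 14 genes tested rose and 7 fell. Antioxidant genes fell in 21 of 35 cases and rose in 1 (12 and 8 on the TPM scale). Nqo1, a quinone reductase induced by NRF2, was at 5.19 to 14.4 against 40.5 to 62.7 CPM (-2.33 ± 0.29), and Gsta4, a glutathione transferase, at 6.08 to 11.8 against 47.4 to 93.8 CPM (-2.79 ± 0.36). Cat, the peroxisomal catalase, was the member that rose, at 295 to 390 against 207 to 292 CPM (0.42 ± 0.12).

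The same comparison on the control diet and in Cpt1a-deficient mice uses other libraries, so it shows where the wild-type high-fat result differs. No gene passed edgeR's test for a difference between diets (0.00% of 13088) and none for a difference between genotypes (0.00%), with 423 and 331 genes at an unadjusted p under 0.05. DESeq2 called 1 gene for diet and none for genotype. With the 16 column pairs as a block 2 genes passed in each. Trp53inp1, a p53-induced stress protein, differed between diets by -1.26 ± 0.18 (adjusted p = 0.00787), with a stem cell minus progenitor difference of 0.68 under high-fat feeding (0.142 as its adjusted p, or 0.00198 with the pairs) and 1.94 on the control diet. Acot1 differed between genotypes by 0.91 ± 0.13 (adjusted p = 0.0113), with 1.18 in wild type and 0.25 in Cpt1a-deficient mice. In edgeR's main fit, without the block, its unadjusted p for the genotype difference was 0.0517. Its close copy Acot2 differed between genotypes by 0.16 ± 0.48 in that fit (unadjusted p = 0.744). The other gene called with the block, for diet and for genotype, was Gm10222, a copy of mitochondrial sequence whose reads cannot be placed with certainty.

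Lists with large medians had the same direction in all 3 comparisons, while some near 0 did not: the mitochondrial genome list stood at -0.27 on the high-fat diet, -0.25 on the control diet and 0.08 in Cpt1a-deficient mice. On the high-fat diet the median of the crypt base markers was 1.53, against 1.74 on the control diet and 1.38 in Cpt1a-deficient mice. Goblet markers stood at -3.82 against -4.72 on the control diet, and 23 of 27 had the smaller difference on the high-fat diet. For 9 of these 27 the difference between diets had an unadjusted p under 0.05, against 3.232% of all genes, and none passed adjustment. Zg16 was at -6.06 against -6.97, Muc2 at -4.81 against -5.51 and Atoh1 at -2.93 against -3.89. Complexes II to V stood at -0.47 against -0.65 on the control diet, with 38 of 39 members smaller on the high-fat diet and none at an unadjusted p under 0.05. Complex I had 35 of 37 smaller (-0.37 against -0.55), mitochondrial ribosomal proteins 63 of 71 (-0.20 against -0.39) and the tricarboxylic acid cycle 29 of 32 (-0.33 against -0.45). Other lists went the other way. Paneth markers had 11 of 31 smaller (-2.92 against -2.68) and enteroendocrine markers 16 of 36 (-4.57 against -4.16). Ribosome biogenesis had 10 of 40 smaller (0.22 against 0.09) and DNA replication and S phase 16 of 50 (0.23 against 0.05). The share of all genes with a smaller difference was not counted. Members of such lists move together, so these counts are no test. Sterol genes were near the control diet value (-0.92 against -0.99) and further from that of Cpt1a-deficient mice (-0.53). All 7 ketone body genes tested had a smaller difference than on the control diet. None of these members passed the adjusted test of the difference.

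**Figure D5:**
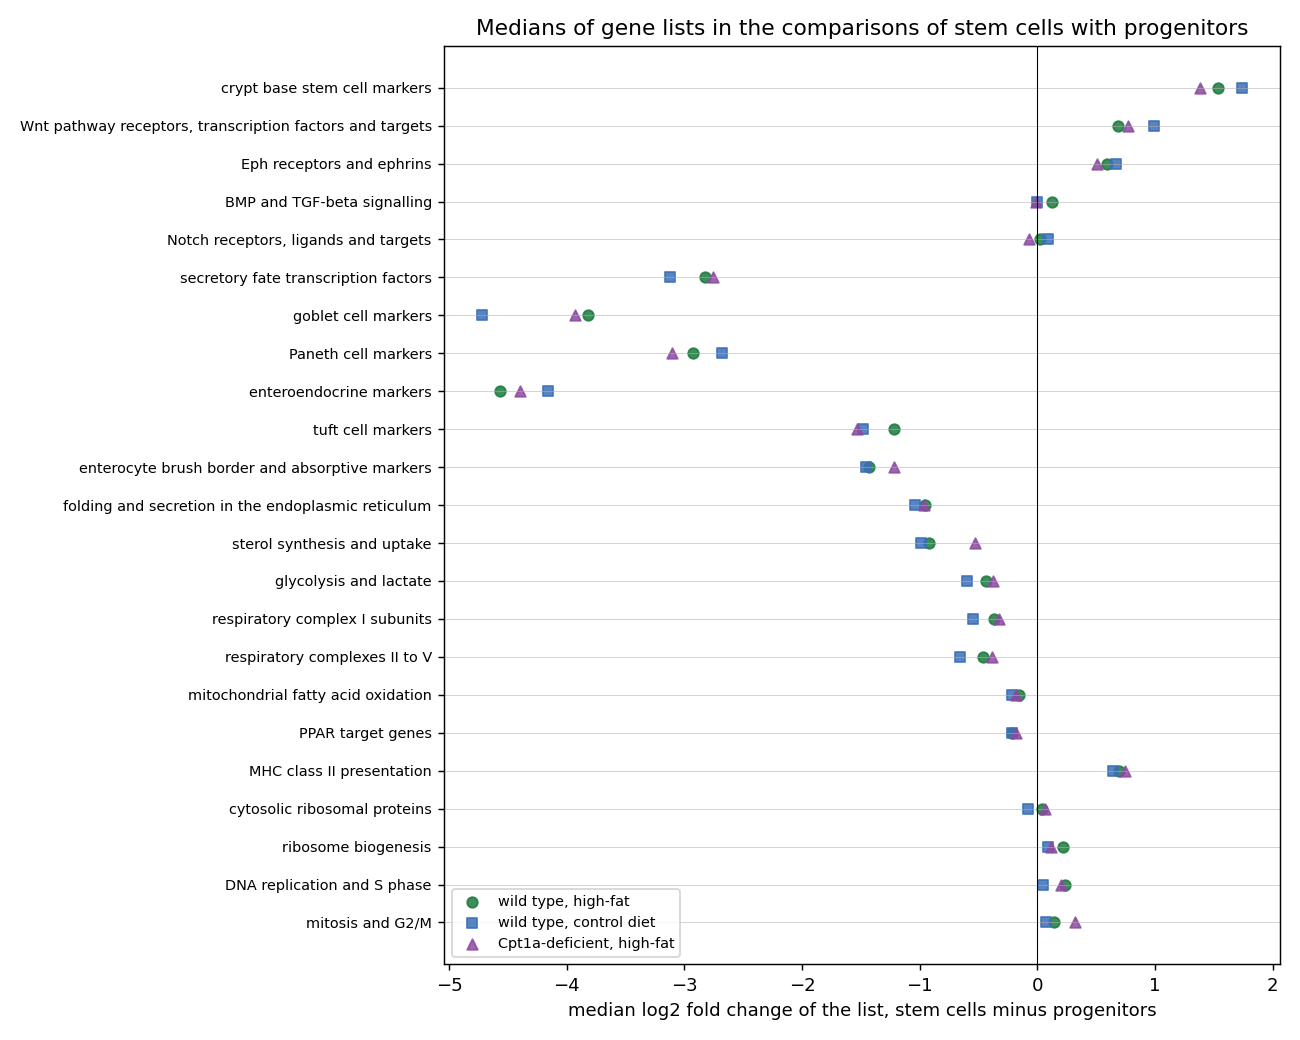
Median log2 fold change (stem cells minus progenitors) of 23 gene lists in wild type on the high-fat diet (circles), wild type on the control diet (squares) and Cpt1a-deficient on the high-fat diet (triangles). The 3 symbols of a list lie close together for most lists, and the goblet markers show the widest gap, from -3.82 to -4.72.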

How the data were processed

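PolyA RNA of sorted cells was sequenced after Clontech library preparation, per the labels. The authors deposited RSEM expected counts for each gene, which were rounded to whole numbers here, and log2(TPM + 1) values. STAR 2.5.3a, RSEM 1.3.0, SAMtools 1.3 and mouse build mm10 are named in the submitters' processing notes, without their settings. The annotation and strand setting are not given in the sources used here. Columns name the group but no replicate.

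All 32 libraries in 8 groups were fitted with edgeR 4.0.16 in R 4.3.3: TMM scaling, filterByExpr with a minimum count of 10, and a robust quasi-likelihood F-test with Benjamini-Hochberg adjustment over 13088 genes and a threshold of 0.05. glmTreat tested against a 2-fold change. SEs are the log2 difference divided by the root of F. Totals of 4362994 to 7281724 counts limit the precision for genes under about 1 CPM. The script was tested on simulated data. Alternatives were RLE size factors, no filter, DESeq2 1.42.0, limma 3.58.1 on log2(TPM + 1), only the 8 libraries, the replicate block and leaving out each library.

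The pairing was checked by correlating deviations from the group means. It was 0.238 to 0.297 within the 4 column pairs and -0.187 to 0.054 between other libraries, so adjacent columns were taken as pairs, although the labels do not say what they share. The main fit has no term for pair or sex. Pairs were left out of it because the labels give no shared animal for the populations. SEs and adjusted p-values are from that unpaired fit unless the pairs or another fit are named.

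The comparison, whose libraries were set by group alone, and the gene lists were chosen with earlier results of these data known. Named genes were the sort genes and Cpt1a, up to 6 called members of each list with the smallest adjusted p and up to 4 against its direction, the 15 largest changes each way among called genes with a mean log2 CPM of at least 3 and no overlap between the populations, and calls that differed by diet or genotype. Chosen outside that rule, with values seen, were Ascl2, Lef1, Notch1, Rbpj, Defa24, Lyz1, Lyz2, Hspa5, Mki67, Ephb2, Znrf3, Herpud1, Ddit3, Trp53inp1, Acot2 and the genes with a promoter match. Some results are not reported here. Promoter windows come from RefSeq (GRCm38.p6), and gene coordinates from GENCODE M21 (GRCm38).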

Additional observations from a re-analysis of the deposited data

Results flagged for a closer look

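Of 280 sets of 4 libraries checked, covering 140 named genes in both populations, 14 (5%) held a library far from the other 3 by Dixon's test, against about 1 in 20 from chance. In stem cells, library a was low for Rb1 at 17.2 CPM beside 30.1 to 30.6, and high for Id3 at 59.4 CPM and for Zbp1 at 1.63 CPM. Stem cell library b was high for Jun at 352 CPM beside 170 to 200. Stem cell library c was low for Bmp2 at 0.860 CPM and for Hsp90b1 at 658 CPM, and high for Mptx1 at 1.94 CPM. Stem cell library d was low for Ddit3 at 4.40 CPM and held the only Gip count, at 0.176 CPM. In progenitors, library a was high for Rps19 at 433 CPM. Progenitor library b was low for Uqcrfs1 at 441 CPM beside 577 to 581, and high for Mptx1 at 109.7 CPM. Progenitor library c was high for Gsta4 at 93.8 CPM, and progenitor library d was low for Gata5 at 81.1 CPM beside 102 to 105.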

How the results depend on the processing

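Limma on log2(TPM + 1), which changes scale and test together, called 4971 genes higher, 1287 lower and 288 past a 2-fold change, and Rb1 reversed to 0.62. Leaving out 1 library gave 4155 to 4718 calls, 1852 to 2159 higher, 2303 to 2581 lower, 598 to 667 past a 2-fold change, and 0 to 0 differences by diet or by genotype. With the replicate block (column pairs), 5515 genes were called, 2529 higher and 2986 lower, with 738 past a 2-fold change, and 4561 calls were shared with the unpaired fit. In the joint fit the block gave 2 genes differing by diet and 2 by genotype, and DESeq2 gave 1 by diet. Of 263 called genes that the naming rule or the text names, 201 kept direction and call in all alternatives, and 30 lost the call without at least 1 library. The cause of these changes was not tested. Depth limits genes with few counts in stem cells, such as Gip and Vim, for which no fold is given. The folds of Cck, Lef1 and Tcf7l1, which had libraries without a count, are imprecise for the same reason.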
